A study of Mus musculus with 5 samples.

Results

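The miRNA profile of the mouse kidney 24 h after ischemia-reperfusion injury (IRI) was set against that of sham-operated kidney, with each miRNA placed relative to the median miRNA of the same pair of arrays. A miRNA entered the comparison when at least 1 of its own probes had a signal above 3 times the scanner error on both arrays. This held for 209 of the 1247 mouse miRNAs on the array design. It held for 219 miRNAs on the sham array and for 298 on the 24 h array, so 10 miRNAs were detected in sham and not at 24 h, and 89 at 24 h and not in sham. The log2 ratio of 24 h over sham had a median of 0.74 over the 209 miRNAs, a 1.67-fold higher signal, and this median was subtracted from every ratio. A value of 0 therefore marks the median miRNA, and a negative value marks a miRNA that gained less signal than the median miRNA, which need not be a lower signal at 24 h.

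The study followed miRNAs in male C57B/6 mice after bilateral renal IRI, which was made by clamping the renal vessels and releasing them, and asked how miRNA levels move with kidney function. RNA extracted from a part of the kidney in the groups Sham, IRI_6h, IRI_12h, IRI_24h, and IRI_48h was labelled with Cy3 and hybridized to 1 array each, and sham animals had the operation without clamping. The labels do not say whether an array held RNA of 1 mouse or of a pool. No test between groups was possible. Each error of a signal is the scanner error of the spots of 1 array, and each error of a ratio joins those of both arrays. Neither holds the spread between animals. In RNA of mixed tissue, fewer cells of a type and less RNA per cell cannot be told apart, and which region of the kidney was taken is not given in the sources used here. The sham array lay on slide 1 and the 24 h array on slide 2, in different scans, so that effects of slide and of group cannot be told apart. No miRNA spot was saturated on any of the 5 arrays. The 4 spike-in controls, synthetic RNAs added with the labelling and hybridization reagents, lay from −0.50 to 0.47 relative to the median miRNA, with a mean of −0.02.

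A mature miRNA guides the Argonaute complex to messenger RNAs, which are then repressed, and it recognizes them mainly through its seed, the bases 2 to 8 from the 5′ end. miRNAs with the same seed form a family with overlapping targets, and miRNAs encoded close together are often cut from 1 shared transcript. In the kidney, members of the miR-192, miR-200, miR-30, and miR-10 groups are abundant in the tubular epithelium, and miR-21 is the best-known miRNA of kidney injury and fibrosis.

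Mature sequences are shown for the seed families whose members all lay on 1 side of the median, or whose median lay farthest from it, and for single miRNAs on which the results turn. RefSeq sequences of the GRCm38.p6 mouse assembly were found for 171 of the 209 miRNAs, 168 by the same name and 3 by the name with an added letter a. Capitals mark the seed. The let-7 family, whose members repress growth and pluripotency genes and are abundant in differentiated tissue, had 9 members on both arrays, and each of the 9 differed from another member by at most 2 bases.
let-7a-5p: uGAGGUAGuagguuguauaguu
let-7b-5p: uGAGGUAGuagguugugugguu
let-7c-5p: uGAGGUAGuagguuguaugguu
let-7d-5p: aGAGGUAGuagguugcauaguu
let-7e-5p: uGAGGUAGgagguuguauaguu
let-7f-5p: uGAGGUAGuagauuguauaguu
let-7g-5p: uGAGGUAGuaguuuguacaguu
let-7i-5p: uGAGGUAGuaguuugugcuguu
miR-98-5p: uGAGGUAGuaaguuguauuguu

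The miR-15/16 family, regulators of the cell cycle and of BCL2, had 6 members on both arrays, from several genomic loci.
miR-15a-5p: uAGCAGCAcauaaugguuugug
miR-15b-5p: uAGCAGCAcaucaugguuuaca
miR-16-5p: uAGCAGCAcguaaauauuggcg
miR-195a-5p: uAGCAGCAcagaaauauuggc
miR-322-5p: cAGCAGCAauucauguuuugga
miR-497-5p: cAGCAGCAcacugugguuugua

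The miR-99/100 family, repressors of mTOR, and the family of miR-200b, miR-200c, and miR-429, which holds epithelial cells in their state by repressing ZEB1 and ZEB2, had 3 members each.
miR-99a-5p: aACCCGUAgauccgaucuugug
miR-99b-5p: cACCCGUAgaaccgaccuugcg
miR-100-5p: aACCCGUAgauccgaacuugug
miR-200b-3p: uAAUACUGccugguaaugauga
miR-200c-3p: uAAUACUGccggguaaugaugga
miR-429-3p: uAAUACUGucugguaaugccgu

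The single miRNAs are miR-21a-5p, the brightest of those far above the median, miR-188-5p, which was measured by 4 probes, miR-210-3p, the lowest, and the pair miR-107-3p and miR-103-3p, which share a seed and differ by 1 base.
miR-21a-5p: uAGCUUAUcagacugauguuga
miR-188-5p: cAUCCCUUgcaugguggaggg
miR-210-3p: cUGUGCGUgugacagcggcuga
miR-107-3p: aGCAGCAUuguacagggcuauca
miR-103-3p: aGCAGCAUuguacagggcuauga

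Relative to the median miRNA, more miRNAs stood far above than far below in the scanner signals, although not in the deposited processed table. The centred log2 ratios ran from −1.995 to 2.88, with the middle of the distribution between −0.38 and 0.54 (interquartile range 0.92). Of the 209 miRNAs, 28 (13.4%) lay at least 2-fold above the median, and 3 (1.44%) lay at least 2-fold below it. In the processed table the same miRNAs gave 27 above and 33 below, and with quantile normalization 23 above and 10 below. By construction about as many miRNAs lay above 0 as below, and this split became 38.3% above with quantile normalization and 63.2% above with centring on miRNAs of at most 50% GC. With the scanner error of each ratio, which was 0.10 to 0.64 with a median of 0.19, 79 miRNAs (37.8%) lay above the median by more than their error, 82 (39.2%) lay below by more, and 48 lay within it. The plot of ratio against signal shows that the far side of the upper tail was made up mainly of dim miRNAs.

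**Figure D1:**
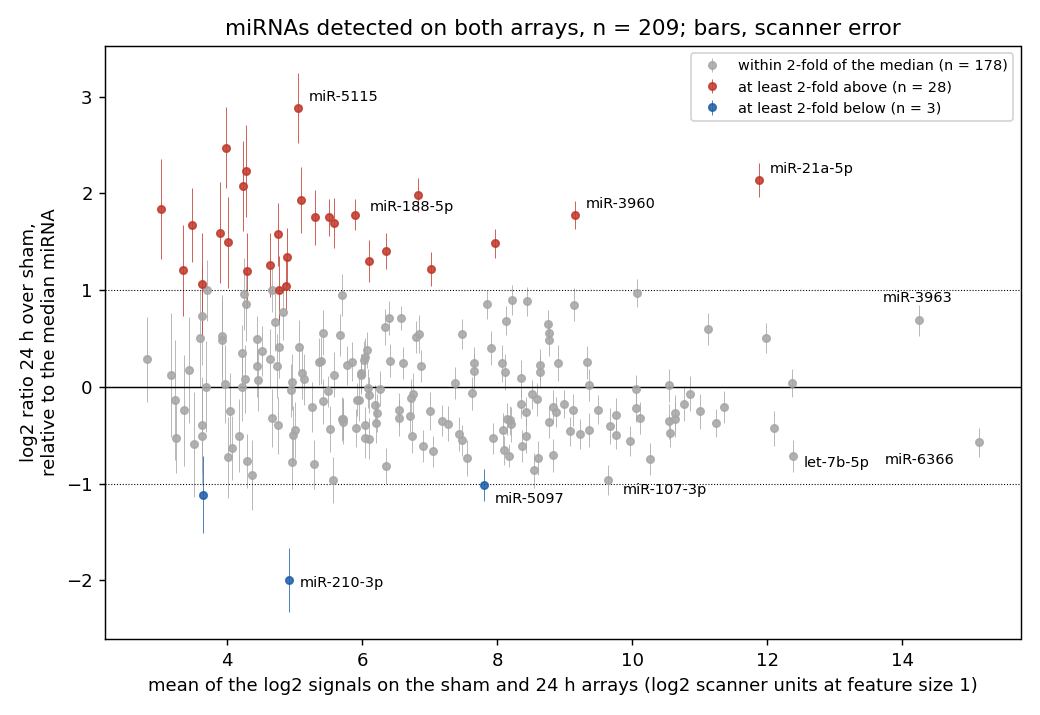
Centred log2 ratio of 24 h over sham for each of the 209 miRNAs (vertical axis) against the mean of its log2 signals on both arrays (horizontal axis, log2 scanner units), with bars for the scanner error. The 28 miRNAs at least 2-fold above the median are mostly at low signal, with miR-21a-5p as the bright exception at 2.14, and the 3 at least 2-fold below are led by miR-210-3p at −1.995.

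The brightest miRNA in the upper tail was miR-21a-5p, which represses PDCD4 and is induced in injured and fibrotic tissue. Its signal was 1384 ± 122 (scanner error) in sham and 10162 ± 876 at 24 h. It was the third brightest miRNA of the 24 h array, and at 2.14 ± 0.18 it lay 4.41-fold above the median miRNA. Both of its probes were detected on both arrays, with centred ratios of 2.10 and 2.36. On the other arrays, each set against the same sham array and its own median, it stood at 0.74 at 6 h, 1.64 at 12 h, and 2.78 at 48 h. The opposite arm of its hairpin, miR-21a-3p, was not detected in sham and had a signal of 34.3 ± 3.54 at 24 h.

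Several other high miRNAs were measured by the same probes on both arrays. miR-3960, a GC-rich miRNA studied in bone formation, had a signal of 238 ± 17.1 in sham and 1361 ± 96.4 at 24 h, at 1.78 ± 0.15 relative to the median. miR-2861, its neighbour in the genome, had a signal of 44.3 ± 4.25 in sham and 292 ± 21.3 at 24 h, at 1.98 ± 0.17. miR-188-5p went from 24.9 ± 2.38 in sham to 142 ± 7.98 at 24 h, at 1.78 ± 0.16, and its 4 probes gave ratios from 1.51 to 2.14. These 3 miRNAs stood higher at 6 h (2.45, 2.58, and 2.22) and 12 h (2.93, 2.83, and 2.48) than at 24 h. The 6 h array was on the slide of the sham array and the 12 h array on that of the 24 h array, and the part of the slide was not tested. miR-125a-3p, the less known arm of the miR-125a hairpin, went from 19.3 ± 2.25 to 108 ± 6.70 with all 4 probes detected on both arrays, at 1.75 ± 0.19. miR-1196-5p went from 13.5 ± 3.0003 to 86.1 ± 7.90, at 1.93 ± 0.35. With normexp background correction, miR-188-5p, miR-125a-3p, and miR-1196-5p were no longer 2-fold above the median, at 0.74, 0.57, and 0.47. That setting adds an offset of 50 to each spot, which by itself draws the uncentred ratios of dim miRNAs toward 0.

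The remaining miRNAs among the 12 highest were dim in sham, and part of their ratio came with probes that passed detection at 24 h only. miR-5115 had a signal of 9.44 ± 2.24 from 1 probe in sham and 116 ± 10.1 from 2 probes at 24 h, at 2.88 ± 0.36. With only the probes detected on both arrays, an alternative chosen after seeing the data, it stood at 2.35. miR-5119 and miR-290-5p moved most under that alternative among the 12. miR-5119 had a signal of 5.18 ± 1.41 from 1 probe in sham and 47.8 ± 4.96 from 3 probes at 24 h, and its ratio of 2.47 became 0.94. miR-290-5p had 3.32 ± 1.06 from 1 probe and 19.8 ± 3.30 from 3 probes, and its 1.84 became 0.30. miR-344i (6.96 ± 2.13 in sham and 54.4 ± 6.48 at 24 h) went from 2.23 to 1.64, miR-145a-5p (7.12 ± 2.14 and 49.98 ± 6.23) from 2.08 to 1.38, and miR-6412 (16.6 ± 2.77 and 93.1 ± 9.54) from 1.75 to 1.35. miR-145a-5p is the best-known miRNA of smooth muscle cells. The sign of several of these dim miRNAs was not stable, since the deposited total gene signal put miR-5119, miR-5115, miR-344i, and miR-145a-5p below the median, at −6.41, −5.13, −1.58, and −1.23, and the processed table put miR-290-5p at −0.68.

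Over all 28 miRNAs at least 2-fold above the median, sham signals ran from 3.32 to 1384 with a median of 14.0, and 24 of the 28 had a sham signal under 50. More probes were detected at 24 h than in sham for 13 of the 28, and the same number for 15. With the probes of both arrays only, 21 of the 28 stayed at least 2-fold above, and no other miRNA joined them. In the whole set, 26 of the 209 miRNAs had different numbers of detected probes on the 2 arrays. Where a miRNA had 2 or more probes on both arrays, which held for 148, the highest and lowest probe ratios differed by a median of 0.11 and by at most 1.09.

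The lowest miRNA was miR-210-3p, the miRNA that hypoxia induces through HIF1A in most cell types. Its signal was 46.6 ± 4.74 in sham and 19.5 ± 4.06 at 24 h, at −1.995 ± 0.33, and 1 of its 2 probes was no longer detected at 24 h. From the probe detected on both arrays alone, it stood at −1.62. It stood at −0.34 at 6 h, −1.995 at 12 h, and −1.52 at 48 h. The others at least 2-fold below were miR-200a-5p, with 14.3 ± 2.14 in sham and 11.01 ± 2.57 at 24 h (−1.11 ± 0.40), and miR-5097, with 245 ± 19.4 and 202 ± 16.5 (−1.01 ± 0.16). With the probes of both arrays only, miR-210-3p alone stayed past 2-fold, since miR-200a-5p went to −0.51 and miR-5097 to −0.996, just inside the limit.

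The next miRNAs in the lower tail were brighter and were read by the same probes on both arrays. miR-107-3p, which acts on metabolic genes and DICER1, had 864 ± 64.2 in sham and 738 ± 55.6 at 24 h, at −0.96 ± 0.15. Its near-identical relative miR-103-3p, named after its values were seen, had 377 ± 31.8 and 545 ± 45.6, at −0.20. The 2 sequences differ by 1 base, and how far either probe set also reads the other miRNA was not tested. miR-99a-5p had 389 ± 34.9 in sham and 357 ± 31.8 at 24 h, at −0.86 ± 0.18. miR-361-5p had 84.3 ± 6.95 and 79.8 ± 7.79, at −0.82 ± 0.18. miR-192-5p, the tubular miRNA that p53 and TGF-β act on, had 1229 ± 102 and 1224 ± 99.6, at −0.74 ± 0.17, so its signal was level while the median miRNA was 1.67-fold higher. The remaining miRNAs of the 12 lowest, miR-3095-3p, miR-214-3p, miR-423-5p, miR-324-5p, and miR-1839-5p, had sham signals from 19.8 to 51.0 and ratios from −0.96 to −0.77. Of these, miR-324-5p lost 1 of 2 probes at 24 h and stood at −0.37 with the other probe alone. The total gene signal put miR-324-5p at 2.60, miR-214-3p at 1.03, and miR-1839-5p at 0.13, on the other side of the median.

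The 10 brightest miRNAs of the 24 h array held 64.6% of the summed signal of the 209 miRNAs at 24 h, and the same 10 held 63.4% in sham. miR-6366 and miR-3963, listed in the array design with little known function, were the brightest at 38025 ± 2838 and 31848 ± 2431. They lay on opposite sides of the median, at −0.57 ± 0.15 and 0.69 ± 0.16, although miR-6366 stood at 0.26 with the processed table. miR-3473b (0.04), miR-5109 (0.51), and miR-6243 (0.60) were at or above the median. The well-studied miRNAs among the 10, apart from miR-21a-5p, were below it, with let-7b-5p at −0.72, let-7c-5p at −0.43, let-7a-5p at −0.21, and miR-30a-5p at −0.37.

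The seed families with at least 3 members on both arrays lay at or below the median miRNA, with 8 of the 9 family medians from −0.53 to −0.23 and that of the miR-181 family at 0.00. All 9 let-7 members were below, 8 of them by more than their scanner error, with a family median of −0.34, where 49.8% of all 209 miRNAs were below and 39.2% were below by more than their error. let-7b-5p was lowest at −0.72 ± 0.17, with 5269 ± 436 in sham and 5346 ± 435 at 24 h. let-7f-5p was highest at −0.17 ± 0.18, with 1433 ± 128 in sham and 2115 ± 188 at 24 h. Every let-7 signal was thus higher at 24 h than in sham, by less than the median miRNA. The family spanned sham signals from 45.6 (miR-98-5p) to 5269, and its median was also negative at 6 h (−0.23), 12 h (−0.59), and 48 h (−0.12). With near-identical members, the signal of one may hold part of another, and the 9 ratios are not 9 separate measurements.

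All 6 members of the miR-15/16 family were below the median by more than their error (39.2% of all 209), with a family median of −0.48. miR-195a-5p was lowest, with 448 ± 37.9 in sham and 457 ± 38.6 at 24 h (−0.71 ± 0.17), and miR-15a-5p was highest, with 420 ± 30.0 and 620 ± 44.3 (−0.18 ± 0.15). Between them lay miR-322-5p (−0.53), miR-15b-5p (−0.50), miR-497-5p (−0.45), and miR-16-5p (−0.37). Their median was −0.15 at 6 h, −0.58 at 12 h, and −0.15 at 48 h.

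The miR-99/100 family was split. miR-99a-5p (−0.86) and miR-100-5p (63.9 ± 6.17 in sham and 73.5 ± 7.93 at 24 h, −0.53 ± 0.21) were below, whereas miR-99b-5p (47.0 ± 4.55 and 85.2 ± 8.15, 0.12 ± 0.20) was within its error of the median. miR-99a is encoded beside let-7c and miR-125b, and miR-99b beside let-7e and miR-125a. All 3 members of the family of miR-200b, miR-200c, and miR-429 were below by more than their error, at −0.30 for miR-200b-3p, −0.39 for miR-200c-3p, and −0.50 for miR-429-3p. Over the deposited processed table in place of the scanner signals, the median of this family moved to 0.04, whereas the medians of the let-7, miR-15/16, and miR-99/100 families were below 0 under each of the 14 alternatives, between −0.34 and −0.07, between −0.47 and −0.14, and between −0.74 and −0.27.

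**Figure D2:**
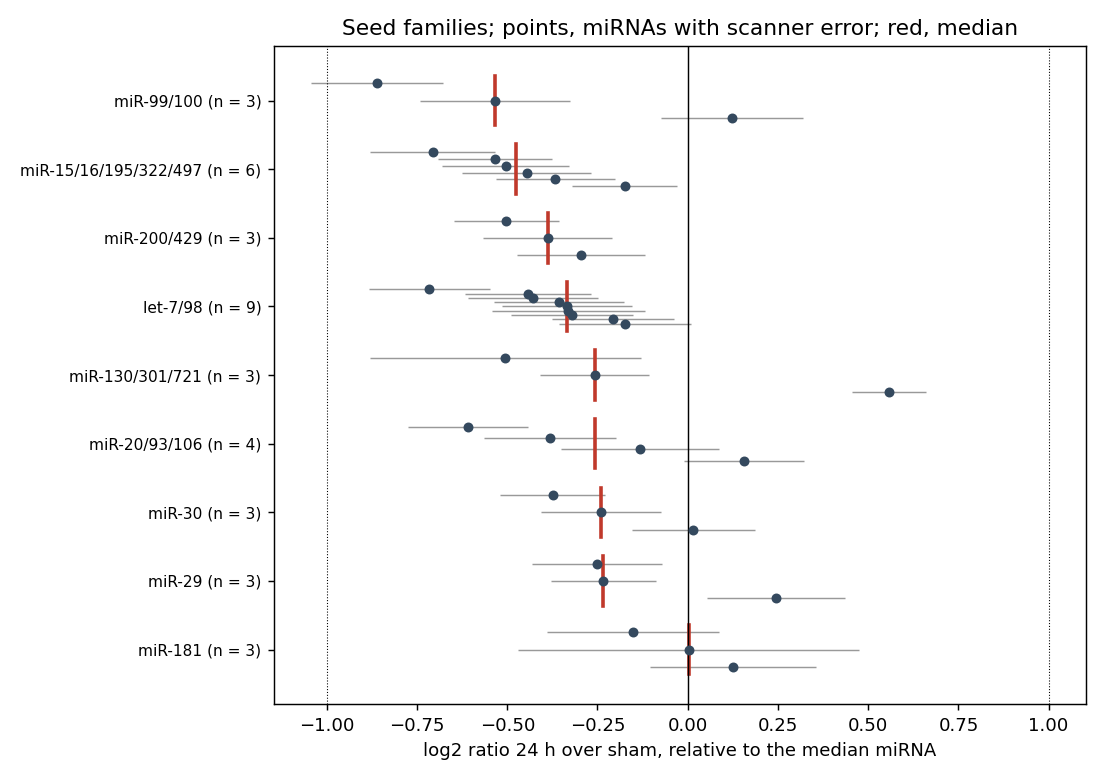
Centred log2 ratios of 24 h over sham (horizontal axis) of the members of the 9 seed families with at least 3 members on both arrays; points are miRNAs with their scanner error and red lines are family medians. All 9 let-7 and all 6 miR-15/16 members lie to the left of the median miRNA at 0, and the miR-181 family lies around it.

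The other families held members on both sides. In the family of miR-20a, miR-20b, miR-93, and miR-106b, which promotes proliferation, the median was −0.26, with miR-20b-5p at −0.61 and miR-20a-5p at 0.16, although these 2 miRNAs differ by 2 bases. In the miR-130/301 family, miR-301a-3p (−0.50) and miR-130a-3p (−0.26) were below and miR-721 was above (0.56 ± 0.10, 277 ± 14.0 in sham and 680 ± 34.4 at 24 h). The miR-29 family, which represses collagen genes, had miR-29a-3p at −0.25 and miR-29c-3p at −0.23, 1 base apart, and miR-29b-3p at 0.25. In the miR-30 family, which is abundant in tubules and podocytes, miR-30a-5p (−0.37) and miR-30e-5p (−0.24) were below, and miR-30c-5p was at the median (0.02). miR-30b-5p and miR-30d-5p, for which no RefSeq sequence was found, stood at 0.40 and −0.35. The miR-181 family had the median 0.00, and all 3 members were within their error. The medians of the miR-20/93/106, miR-130/301, miR-30, and miR-29 families, −0.26 to −0.23, rose to between 0.00 and 0.09 under at least 1 alternative each.

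The value of the median depended on which miRNAs entered it. The 57 miRNAs with a number of 1000 and above, which were added later to the miRNA registry, had a median of 0.55, and 46 of them lay above 0. The 152 with lower numbers had a median of −0.20, and 58 lay above 0, beside 49.8% of all 209. Without the later miRNAs the let-7 median was −0.14 and the miR-15/16 median was −0.28. Of the 28 miRNAs at least 2-fold above the median, 17 had a number of 1000 and above, beside 57 of all 209.

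The later miRNAs were also richer in G and C, with a median GC content of 60.9% (39 with a sequence) against 45.5% (132 with a sequence). The 34 miRNAs of at least 60% GC had a median ratio of 0.47. Of these 34, 26 lay above 0, beside 49.8% of all 209, and 9 lay at least 2-fold above, beside 13.4%. The 53 miRNAs from 50% to below 60% had a median of −0.04. The 61 from 40% to below 50% had a median of −0.30, and the 23 below 40% had −0.21. Across the 171 miRNAs, Pearson's r of GC content with the ratio was 0.34 and Spearman's rho was 0.28, as a description over miRNAs that share 2 arrays. For the GC content of the probe, r was 0.39 (n = 209), and for the mean log2 signal it was −0.23.

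**Figure D3:**
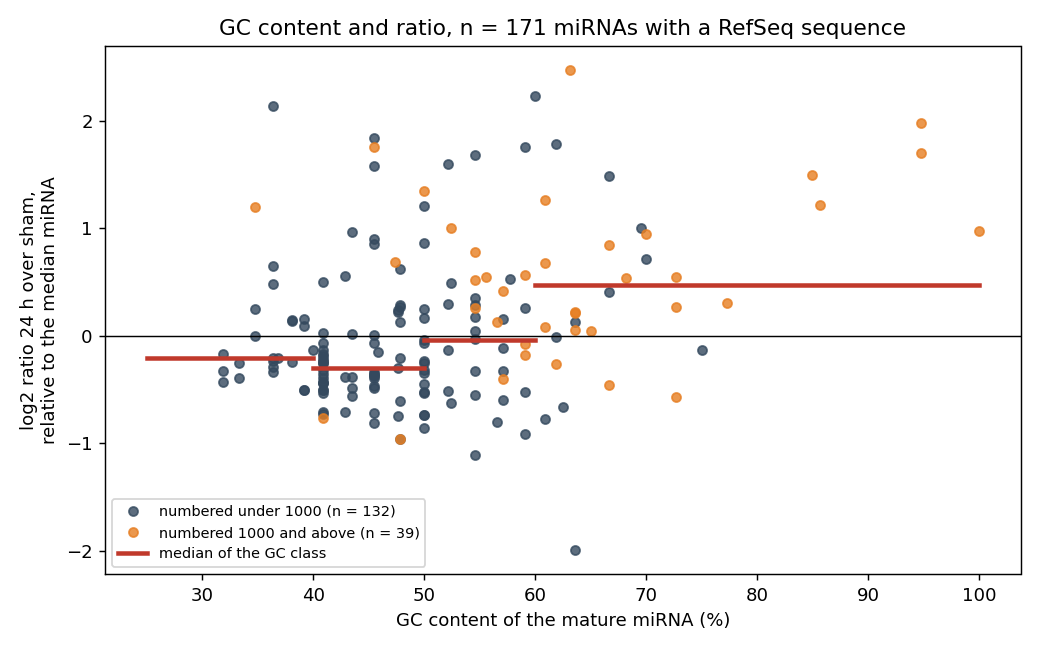
Centred log2 ratio of 24 h over sham (vertical axis) against the GC content of the mature miRNA in percent (horizontal axis) for the 171 miRNAs with a RefSeq sequence, colored by miRNA number; red lines are medians of 4 GC classes. The median is 0.47 at 60% GC and above and lies between −0.30 and −0.04 in the other classes.

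The same GC-rich miRNAs stood at a median of 0.48 at 6 h (n = 32), 0.84 at 12 h (n = 34), and 0.26 at 48 h (n = 29), each relative to the median of that time point and to the same sham array. Signal level moved with the ratio too. Among the 52 dimmest miRNAs, with mean signals from 7.02 to 28.5, the median ratio was 0.32 and 13 lay at least 2-fold above. Among the 53 brightest, from 349 to 35944, the median was −0.22 and 2 lay at least 2-fold above. Over all 209 miRNAs, 13.4% lay at least 2-fold above. The part of GC content and of signal level in the ratios was not tested.

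Among the 11 genomic clusters with at least 3 miRNAs on both arrays, the cluster of miR-200b, miR-200a, and miR-429 (GRCm38.p6 chr4:156053905-156055750, minus strand) had the lowest median. All 5 of its mature miRNAs were below the median, 4 by more than their error (39.2% of all 209), with a median of −0.50. miR-429-3p had 803 ± 57.3 in sham and 944 ± 67.1 at 24 h, and miR-200b-3p had 741 ± 64.3 and 1006 ± 86.7. miR-200a-3p, whose seed differs from that of miR-200b, had 312 ± 25.7 and 475 ± 38.8 and was within its error of the median (−0.13 ± 0.17). The miR-200c and miR-141 pair, encoded elsewhere, stood at −0.39 and −0.19. With the processed table, the cluster median was 0.04, and with a limit of 5 times the error it was −0.22.

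The miR-17~92 cluster (chr14:115043671-115044506, plus strand), a proliferation-promoting oncomir, lay on the other side, with a median of 0.16. All 5 of its mature miRNAs on both arrays were above 0 (49.8% of all 209), and 1 was above by more than its error (37.8% of all 209). This was miR-18a-5p, with 10.6 ± 2.28 in sham and 34.3 ± 4.95 at 24 h (0.96 ± 0.37), and miR-20a-5p (0.16), miR-92a-3p (0.16), miR-19b-3p (0.09), and miR-17-3p (0.17) were within theirs. miR-17-3p turned to −2.53 with the processed table and to −0.24 with the total gene signal. Its paralog, the miR-106b~25 cluster (chr5:138165321-138165818, minus strand), had 3 of 3 below 0 (49.8% of all 209), 1 by more than its error (39.2%), with a median of −0.13. That median turned positive under 4 alternatives, and the miR-17~92 median was between 0.17 and 0.40 under all 14.

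The let-7a-17f-17d cluster (chr13:48536012-48538272, minus strand) had 3 of 3 below 0 (49.8% of all 209) and a median of −0.21. That median turned to 0.035 with centring on miRNAs of at most 50% GC and to 0.091 with normexp background correction. The miR-23a27a24-2 cluster (chr8:84208518-84208921, plus strand) had a median of 0.22, with miR-27a-3p at 0.49 ± 0.17, miR-23a-3p at 0.22 ± 0.17, and miR-24-3p at −0.03 ± 0.15. In the cluster of let-7e, miR-99b, and miR-125a the members were spread from −0.44 for let-7e-5p to 1.75 for miR-125a-3p. In the miR-500~532 cluster on the X chromosome, miR-188-5p stood at 1.78, miR-362-3p at 0.03, and miR-500-3p at −0.33. In the cluster of miR-199a-2 and miR-214 (chr1:162217814-162223477, plus strand), which is expressed in stromal cells, miR-214-3p was at −0.91 ± 0.36, miR-199a-3p at −0.07, and miR-199a-5p at 0.29. miRNAs of 1 cluster therefore stood as far apart as 2.19 on the log2 scale.

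**Figure D4:**
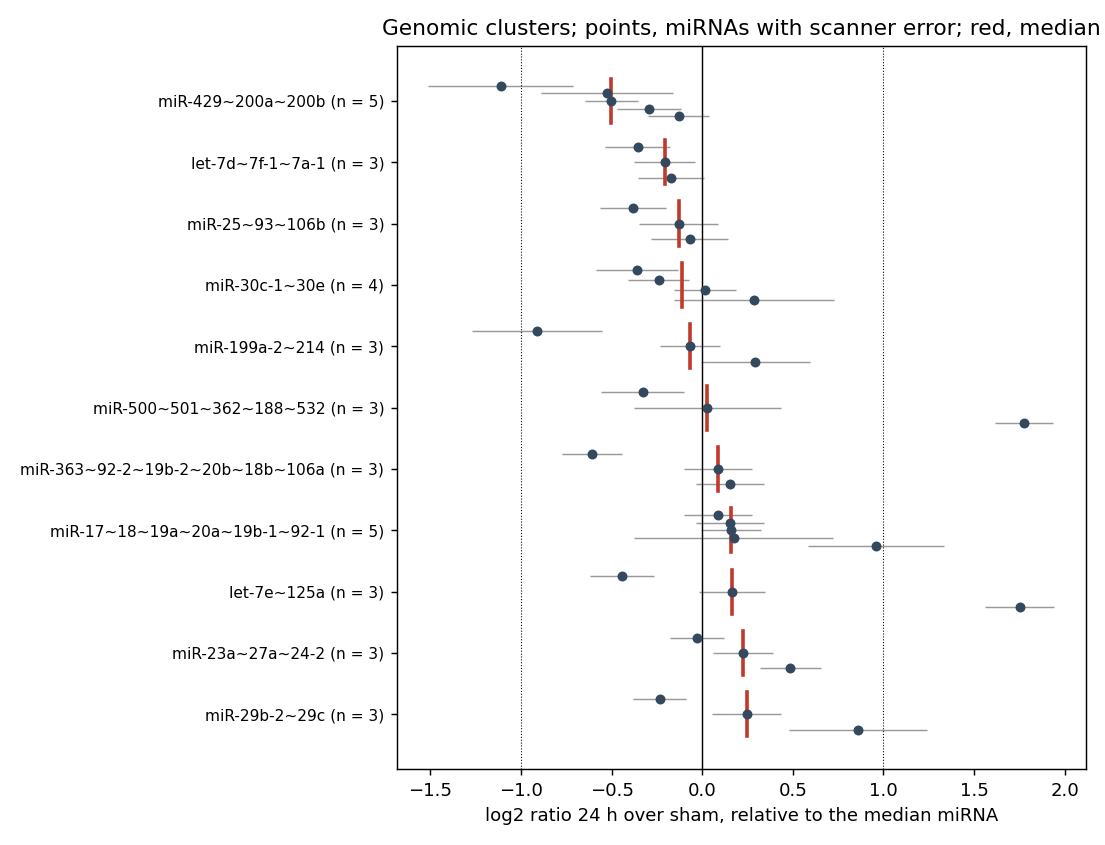
Centred log2 ratios of 24 h over sham (horizontal axis) of the mature miRNAs of the 11 genomic clusters with at least 3 miRNAs on both arrays; points are miRNAs with their scanner error and red lines are cluster medians. The cluster of miR-429, miR-200a, and miR-200b lies below 0 and the miR-17~92 cluster above it, whereas clusters with miR-188-5p or miR-125a-3p hold 1 miRNA far from the others.

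The arms of a hairpin come from 1 precursor molecule, and 12 hairpins had both arms on both arrays. The arms differed by more than their joint scanner error in 7. The widest gap was in miR-125a, with miR-125a-5p at 0.16 and miR-125a-3p at 1.75, a difference of −1.59 ± 0.26. In miR-29c the order was the opposite, with miR-29c-5p at 0.86 and miR-29c-3p at −0.23, a difference of 1.09 ± 0.41, and miR-29c-5p had 1 probe detected in sham and 2 at 24 h. From the probe of both arrays alone miR-29c-5p stood at 0.27, and with the total gene signal it stood at −4.82, below miR-29c-3p at −0.12. In miR-30a (−0.37 and −0.35) and miR-30e (−0.24 and −0.36) both arms stood at like values within their error.

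The miRNAs listed for proximal tubule and kidney epithelium were detected in both groups and lay mainly below the median in the scanner signals. The list is not particular to tubular cells, since miR-30 members are also abundant in podocytes. Of 13 listed, 12 were on both arrays, and miR-215-5p was on neither. Of the 12, 10 were below 0, 8 by more than their error (39.2% of all 209), with a median of −0.35 beside the median of 0 over all 209. With the processed table the list median was 0.00195 and 6 of the 12 were below, and under the other 13 alternatives it was below 0. Their summed signal was 8446 in sham and 10864 at 24 h. miR-192-5p (−0.74), miR-10a-5p (−0.56), miR-429-3p (−0.50), and miR-10b-5p (−0.49) were lowest, and miR-194-5p was at −0.33. miR-204-5p, a miRNA of the tubule, was the exception at 1.58 ± 0.33, with 12.1 ± 2.35 from 1 probe in sham and 60.2 ± 6.86 from 2 probes at 24 h, and at 1.12 with the probe of both arrays alone.

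Markers of other cells were few. Of 7 leukocyte miRNAs, 3 were on both arrays. The summed list signal was 79.7 over the 4 detected in sham and 91.1 over the 3 detected at 24 h. The neutrophil miRNA miR-223-3p had 41.4 ± 4.54 in sham and 50.9 ± 6.22 at 24 h (−0.44 ± 0.24), with 1 of its 2 probes lost at 24 h. It stood at −0.16 with the probe of both arrays alone and at 0.41 with the total gene signal. Over time it stood at 0.99 at 6 h, 1.11 at 12 h, and 0.97 at 48 h. miR-146a-5p was at −0.73 ± 0.42 and miR-155-5p at 0.00 ± 0.36, and miR-142-5p, miR-150-5p, and miR-146b-5p were on neither array. miR-142-3p was detected in sham, at 7.90 ± 2.16, and not at 24 h, where its undetected probes summed to 12.9. The red blood cell miRNA miR-451a had 266 ± 19.9 in sham and 693 ± 51.2 at 24 h (0.65 ± 0.15), and was the only miRNA of its list detected. The endothelial miR-126-3p had 1378 ± 100.6 and 1655 ± 121 (−0.47 ± 0.15). The stromal and smooth muscle list had 6 miRNAs on both arrays, with 3 above and 3 below, a median of 0.09 (−0.18 with quantile normalization and −0.071 with the processed table), and a sum of 338 in sham and 575 at 24 h. None of 7 miRNAs of liver, muscle, and brain was detected on either array. The part of these cell types in the ratios was not tested.

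Of the 14 miRNAs listed for injury, hypoxia, and DNA damage, 7 were on both arrays, with 3 above and 3 below the median by more than their error, beside 37.8% and 39.2% of all 209, and a list median of 0.00. Beside miR-21a-5p and miR-188-5p, miR-494-3p was above, with 169 ± 13.4 in sham and 523 ± 40.1 at 24 h (0.90 ± 0.16), and stood at 1.47 at 6 h, 2.45 at 12 h, and 2.19 at 48 h. miR-34a-5p, a direct target of p53, had 391 ± 34.99 in sham and 391 ± 33.97 at 24 h (−0.73 ± 0.18), and stood at 0.62 at 6 h. miR-132-3p was detected at 24 h and not in sham, with a signal of 26.0 ± 4.41. Of the 6 miRNAs on the qRT-PCR list, miR-18a-5p (0.96), miR-214-3p (−0.91), and miR-210-3p (−1.995) were on both arrays. With the total gene signal miR-214-3p, and with it the median of these 3, turned to 1.03. miR-34b-3p (12.3 ± 3.76), miR-182-5p (11.4 ± 3.74), and miR-134-5p (6.32 ± 1.90) were detected at 24 h and not in sham. How the 6 were chosen is not given in the sources used here.

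**Figure D5:**
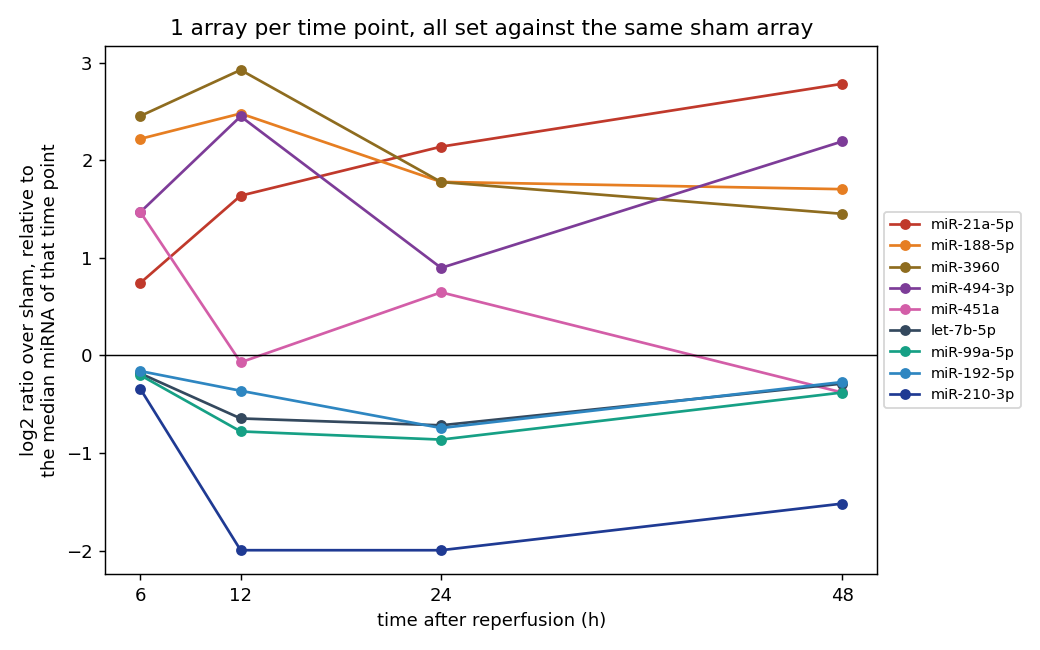
Log2 ratio over sham relative to the median miRNA of the same time point (vertical axis) against hours after reperfusion (horizontal axis) for 9 miRNAs, with 1 array per time point and the same sham array under each. miR-21a-5p stands at 0.74, 1.64, 2.14, and 2.78, and miR-210-3p at −0.34, −1.995, −1.995, and −1.52, at 6, 12, 24, and 48 h.

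The 89 miRNAs detected at 24 h and not in sham were dim, with signals from 5.60 to 85.6 and a median of 15.3, against a median of 111 for the 209 at 24 h. The brightest was miR-328-3p at 85.6, followed by miR-6392-3p, miR-3102-5p.2-5p, miR-1894-5p, and miR-3472. Their median GC content was 59.1% (78 with a sequence) against 50% for the 209 (171 with a sequence). Of the 89, 26 were also detected at 6 h, 52 at 12 h, and 6 at 48 h. In all, 248 miRNAs were detected at 6 h, 279 at 12 h, and 197 at 48 h. The 12 h array shared slide and scan with the 24 h array, and the 6 h array with the sham array. The 48 h array lay on slide 2 in another scan. The effective feature size in the header was larger for the 12 h and 24 h arrays than for the others. The part of slide, scan, and feature size in these counts was not tested. The 10 miRNAs detected in sham and not at 24 h were dimmer still, led by miR-30b-3p at 10.702, and included miR-183-5p, miR-503-5p, and miR-126-5p. No ratio is given for either group.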

How the data were processed

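Kidney RNA of 5 groups was hybridized to Agilent 1-colour mouse miRNA arrays, with 1 array per group. Per the file headers, the deposited intensity of each spot and probe was written by Agilent Feature Extraction 10.7.1.1, which subtracted background and detrended each array on its own, with no scaling between arrays. A second file held log2 values processed by the authors. How it was made is not given in the sources used here, its scale and centring stay unknown, and it was used only as an alternative. The deposited total gene signals differed by over 1%, in either direction, from the summed signal of a miRNA's own detected probes for many miRNAs. This held for 58 of the 219 miRNAs detected in sham and 97 of the 298 detected at 24 h. Probe signals were therefore summed per miRNA, once per probe, over the probes above 3 times their error, and divided by the effective feature size of the header (0.6 for sham, 0.776 for 24 h). Log2 ratios of the miRNAs detected on both arrays were centred on their median, and probe errors were propagated.

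Seeds were bases 2 to 8 of the RefSeq sequence, and clusters were miRNA genes on 1 strand with starts at most 10000 bases apart. Named are the 12 highest and 12 lowest ratios, the 10 brightest miRNAs at 24 h, members of families and clusters with at least 3 members, members of marker and response lists, and up to 5 miRNAs of each kind detected on 1 array only. Members and lists were chosen with earlier results of these data known. The 2-fold counts, the medians of families, clusters, and lists, and the ratios of 66 named miRNAs were recomputed under 14 alternatives. These were alternatives of probe detection, signal, background correction, centring, and members, and 2 of them were chosen after seeing the data. The GC classes and correlations, number groups, signal levels, arm counts, counts past the scanner error, and other time points were not recomputed. Coordinates are those of GRCm38.p6. The software was R 4.3.3 with limma 3.58.1 and Python 3.11.15 with numpy 2.4.6, pandas 2.3.3, statsmodels 0.14.6, and matplotlib 3.10.9. The sums, centring, and counts were tested on simulated data. Most simulated signals lay well above the detection limit, so probes that pass it on 1 array only were little covered. With 1 array per group no p-value was computed, and precision is limited by the number of arrays. The qRT-PCR, histology, and serum measurements were not analysed here.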

Additional observations from a re-analysis of the deposited data

How the results depend on the processing

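No paired analysis was possible because a single array stood on either side of the comparison, and for the same reason no replicate could be left out. Each value rests on 1 sham array and 1 array at 24 h from different slides, and scanner errors do not hold the spread between mice. Signals near the detection limit carry the widest errors, and a sum over detected probes jumps where a probe passes the limit on 1 array only.

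The 28 miRNAs at least 2-fold above the median became 18 with a limit of 5 times the error (170 miRNAs). Normexp background correction, whose offset of 50 draws the uncentred ratios of dim miRNAs toward 0, gave 14. There were 18 without the miRNAs below the first quartile of signal (157 miRNAs) and 17 without miRNAs numbered 1000 and above (152 miRNAs). The other alternatives gave 21 to 39, although 15 of the 26 with the total gene signal and 20 of the 27 with the processed table were among the original 28. The 3 at least 2-fold below became 0 with 5 times the error, 11 with the total gene signal, 33 with the processed table, 6 with a lowess curve, and 10 with quantile normalization. They became 1 without the miRNAs below the first quartile of signal, without miRNAs numbered 1000 and above, with the probes of both arrays, and with centring on miRNAs of at most 50% GC. Quantile normalization put the median of all 209 miRNAs at −0.15 and 38.3% of them above 0, and the centring on miRNAs of at most 50% GC put it at 0.24 and 63.2% of them above 0.

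Under the total gene signal, miR-5119 turned to −6.41, miR-5115 to −5.13, miR-344i to −1.58, and miR-145a-5p to −1.23. With miR-29c-5p (−4.82), miR-17-3p (−0.24), miR-324-5p (2.60), miR-93-5p (2.58), miR-214-3p (1.03), miR-223-3p (0.41), miR-1839-5p (0.13), miR-25-3p (0.087), and miR-199a-3p (0.050), 13 of the 66 named miRNAs changed side. With the processed table, 11 of the 66 did, of which miR-290-5p turned to −0.68, miR-17-3p to −2.53, and miR-199a-5p to −0.26, and the other 8 (miR-6366, miR-10a-5p, miR-429-3p, miR-200b-3p, miR-29c-3p, miR-200a-3p, miR-25-3p, and miR-199a-3p) rose to between 0.017 and 0.26. Under each of the other 12 alternatives, 0 to 7 named miRNAs changed side.

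Family and cluster medians moved by more than the SD of their members as follows, with the miR-429 family standing for miR-200b, miR-200c, and miR-429, and the miR-429 cluster for miR-200b, miR-200a, and miR-429. With a lowess curve, let-7 went to −0.17, the let-7a-1 cluster to −0.029, and miR-181 to −0.30. With centring on miRNAs of at most 50% GC, miR-15/16 went to −0.23, let-7 to −0.093, miR-181 to 0.25, miR-30 to 0.0026, the miR-429 family to −0.14, the miR-106b~25 cluster to 0.11, and the let-7a-1 cluster to 0.035. With normexp, miR-181 went to −0.14, let-7 to −0.071, miR-15/16 to −0.20, miR-30 to 0, the miR-429 family to −0.14, and the let-7a-1 cluster to 0.091. With the processed table, miR-30 went to −0.0151, the miR-429 cluster and the miR-429 family to 0.038, the let-7a-1 cluster to −0.0609, let-7 to −0.17, miR-181 to −0.27, miR-15/16 to −0.14, and miR-29 to 0.092. With quantile normalization, miR-181 went to −0.34. With the total gene signal, the miR-106b~25 cluster went to 0.087, the miR-429 family to −0.27, and the let-7a-1 cluster to −0.0897. Without miRNAs numbered 1000 and above, miR-181 went to 0.20, the miR-106b~25 cluster to 0.067, the miR-429 family to −0.19, the let-7a-1 cluster to −0.0089, miR-30 to −0.042, miR-15/16 to −0.28, and let-7 to −0.14. Without the miRNAs below the first quartile of signal, the let-7a-1 cluster went to −0.0897 and the miR-429 family to −0.27. The cause of these moves was not tested.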
